A study of Mus musculus with 29 samples.

Results

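The genes described here encode subunits of the ionotropic and metabotropic receptors for glutamate, GABA and glycine in mouse cortex. Members were matched by gene symbol, and 52 of the 25746 genes in the count files matched: 4 AMPA, 5 kainate, 7 NMDA and 2 delta receptor subunits, 8 metabotropic glutamate (mGlu) receptors, 19 GABAA, 2 GABAB and 5 glycine receptor subunits. RNA sequencing of polyA RNA was available for 29 brain samples. The labels do not say whether samples came from separate mice, and the methods give fewer sequenced mice than there are samples here for NSG and for tacrolimus. Each n therefore counts samples, also where a group is called mice, and p-values measure only the spread between these samples, which may be technical.

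The study asked how mice with a weakened immune system respond to a large photothrombotic stroke of the right sensorimotor cortex, with tissue taken 21 days later. Non-stroked groups were WT (C57BL/6J, n = 4), Rag2-/- (no mature T and B cells, n = 3) and NSG mice (NOD background, also without natural killer cells, n = 4). Stroked groups were WT (n = 4), Rag2-/- (n = 3), NSG (n = 3) and WT mice that received tacrolimus, a calcineurin inhibitor, from subcutaneous osmotic pumps. Tacrolimus was given from the day of the stroke (WT-Tacr acute, n = 3) or from a week after it (WT-Tacr delayed, n = 5). Mice of both sexes, 3 months of age, were used. No non-stroked mouse received tacrolimus, so 1 group of non-stroked WT mice served as the control for all WT groups. The labels call the non-stroked samples controls, whereas the methods name the contralesional site of the cortex as the other tissue taken. WT mice came from a different breeder than Rag2-/- and NSG mice, and NSG differ from the others in strain background as well as in immune cells. Sample names start with Imm2 (20 samples) or TF (9 samples): 2 stroked WT, 2 WT-Tacr acute and all WT-Tacr delayed mice were TF, and all other mice were Imm2.

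Glutamate is the main excitatory transmitter of the cortex. It opens AMPA, kainate and NMDA receptors, which are tetramers of the subunits described here, and acts more slowly through the G protein coupled mGlu receptors. GABA opens the pentameric GABAA chloride channels and activates GABAB receptors, while glycine receptors carry most of their inhibitory current in the brainstem and spinal cord.

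Levels are given as CPM, the read counts scaled to a common library size after TMM adjustment, and compared between genes only per kilobase (kb) of exon. In non-stroked WT mice, the GABAB subunit Gabbr1 had the highest level per kb of all members, 126 ± 3.15 CPM per kb (mean ± SD, n = 4), and the AMPA subunit Gria1 came next with 94.3 ± 7.14 CPM per kb. The obligatory NMDA subunit Grin1 reached 82.2 ± 4.05 CPM per kb. Leading members of further classes were Grik5 for kainate receptors (47.2 ± 0.427 CPM per kb), Glrb for glycine receptors (45.1 ± 0.285 CPM per kb), Grm3 for mGlu receptors (26.3 ± 1.98 CPM per kb) and Grid1 for delta receptors (12.95 ± 0.535 CPM per kb). 6 members were too low to be tested in the fit of all groups: Gabra6 (0 to 4 counts per sample), Gabrp (0 to 2), Gabrr1 (0 to 29), Gabrr3 (0 to 10), Glra4 (0 to 13) and Grm6 (0 to 3). The other 46 passed the filter on low counts.

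**Figure D1:**
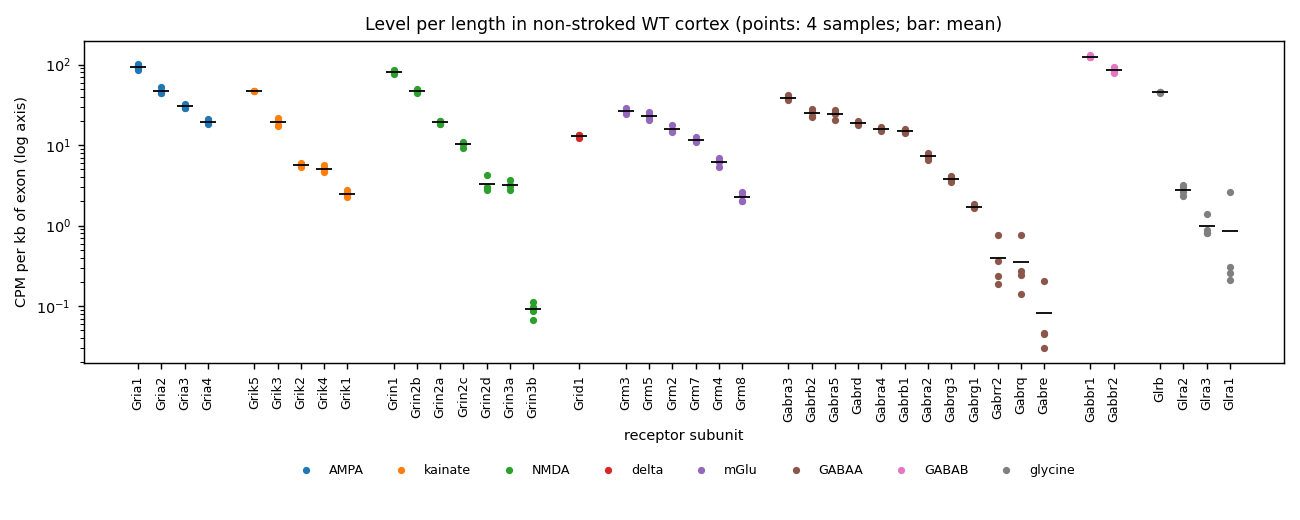
Level of 41 of the tested members in non-stroked WT cortex, in CPM per kb of exon on a log axis, grouped and coloured by receptor class; each point is 1 of 4 samples and the bar is their mean. Gabbr1 and Gria1 stand highest, while Glra1, Gabrq, Gabre and Gabrr2 each have 1 sample above the others.

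Promoter sequences from RefSeq were found for 36 of the 52 members. Among those with no entry were Gabrd, Glra1, Gria1, Gria3, Grid1, Grik1, Grin2a, Grin2b, Grin3a, Grm4 and Grm5. Shown are the 250 bases before the start of Grm3 (the member with the smallest p after stroke), Gria4 (called in each strain) and Gabra2 (the member with the smallest p between strains), 5′ to 3′ on the gene's strand, in lower case with the GC box GGGCGG or its reverse complement CCGCCC in capitals.
Grm3: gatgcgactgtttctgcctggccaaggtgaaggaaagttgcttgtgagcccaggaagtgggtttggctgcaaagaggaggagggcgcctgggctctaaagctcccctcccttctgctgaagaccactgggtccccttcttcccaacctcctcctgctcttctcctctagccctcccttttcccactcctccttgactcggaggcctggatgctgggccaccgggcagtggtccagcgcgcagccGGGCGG
Gria4: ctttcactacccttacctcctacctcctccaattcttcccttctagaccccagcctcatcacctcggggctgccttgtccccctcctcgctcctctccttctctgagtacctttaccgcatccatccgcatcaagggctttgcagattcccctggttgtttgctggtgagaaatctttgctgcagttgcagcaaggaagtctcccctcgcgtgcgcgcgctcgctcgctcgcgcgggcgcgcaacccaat
Gabra2: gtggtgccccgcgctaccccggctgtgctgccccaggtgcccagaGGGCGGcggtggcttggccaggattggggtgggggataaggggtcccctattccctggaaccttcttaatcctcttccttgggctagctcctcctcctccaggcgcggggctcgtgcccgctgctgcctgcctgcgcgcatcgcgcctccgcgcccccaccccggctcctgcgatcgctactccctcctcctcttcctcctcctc
They lie at chr5:9725353-9725602, chr9:4796235-4796484 and chr5:71095850-71096099 of GRCm38.p6, all on the - strand. For Grm3 the RefSeq start is 182 bases upstream of that of the GENCODE gene. Over both strands, the GC box was in 21 of 43 promoters of members (48.8%) and in 32.7% of all 32851 promoters in the table. The cyclic AMP response element TGACGTCA, which reads the same on both strands, was in 0 of 43 promoters of members and in 1.55% of all. Neither count was tested, and letters in this window say nothing of binding.

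Library depth was 17789044 to 43403413 counts, with TF samples the shallower (17789044 to 29928311 against 32507506 to 43403413 in Imm2). Transcripts of neurons were lower in part and those of microglia higher after stroke. The summed level of 14 pan-neuronal genes was 12634 to 13912 CPM in non-stroked WT mice and 11683 to 13788 and 12594 to 13496 CPM in non-stroked NSG and Rag2-/- mice. It was 11784, 11717, 8599 and 8636 CPM in stroked WT mice, where the first pair was Imm2 and the second TF, 9574 to 11526 CPM in stroked Rag2-/- mice, and 12576, 10267 and 11325 CPM in stroked NSG mice, the first of which lay within the range of its controls. Of 8 microglia and macrophage genes, 7 were higher after stroke in the mean of the 3 strains, as were 7 of 8 astrocyte genes, while 8 of 14 pan-neuronal genes were lower. Taken singly, WT mice had 6 of these lower, NSG mice 2 and Rag2-/- mice 0. In bulk tissue, fewer cells of a type and less RNA per cell cannot be told apart. Cortical glutamatergic markers were present in every group (a sum of 6306 to 7564 CPM over 6 genes in non-stroked WT and 3141 to 4257 CPM in WT-Tacr delayed mice). Markers of other regions differed between samples: 8 striatal genes summed to 131 to 2406 CPM across samples, and 6 midbrain and brainstem genes to 2.90, 51.3, 3.66 and 3.49 CPM in the 4 non-stroked WT samples. The highest of these values was that of non-stroked WT replicate 3, whose Glra1 level was 6.39 CPM, against 0.504 to 0.740 CPM in the others of the group. The midbrain and brainstem sum also reached 31.6 CPM in stroked WT and 25.3 CPM in WT-Tacr delayed mice. It reached 14.7 CPM in WT-Tacr acute and 12.5 CPM in non-stroked NSG mice, and at most 5.97 CPM in the remaining groups. Some libraries of the other groups stood apart as well: non-stroked NSG replicate 3 had the highest Grin3a, Gabrq and Glra3 of its group, and stroked NSG replicate 1 the lowest Gabrb2, Gria2 and Grin2b. Values without these libraries are given beside many of the results they touch.

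Receptor subunit transcripts were lower after stroke across excitatory and inhibitory classes, mostly by less than a log2 unit. In the mean of the stroke effects in WT, Rag2-/- and NSG mice, 30 of the 46 tested members were lower and 0 higher at an adjusted p below 0.05 (edgeR quasi-likelihood test, Benjamini-Hochberg over all 17031 genes tested). Over all genes, 18.4% were lower and 21.6% higher in the same comparison, and 33 members had an unadjusted p below 0.05 in either direction (48% of all genes). DESeq2 called 32 members. With libraries scaled to 14 pan-neuronal genes in place of the total, 5 were lower and 5 higher, while the median of all genes moved above 0. Neither this count nor that of DESeq2 was set against a share of all genes. The same holds for counts with other tools, scalings and sample sets below. Such counts do not show whether members stood apart from all genes. Within Imm2 26 fell, but not Glra1 at -1.42 ± 0.54 (SE; adjusted p = 0.0535), Glra2 at -0.40 ± 0.16 (SE; adjusted p = 0.0542), Grid1 at -0.11 ± 0.05 (SE; adjusted p = 0.0879), Grin2a at -0.25 ± 0.12 (SE; adjusted p = 0.109) and Grin3a at -0.22 ± 0.10 (SE; adjusted p = 0.0928). The median log2 fold change was -0.32 over the members and 0.005 over all genes, and 42 of 46 members had a value below 0, against 49.2% of all genes. Sizes ranged from a log2 fold change of -0.17 for Grid1 to -1.47 for Glra1 among the members that fell, and Glra1 alone passed an absolute log2 fold change of 1 (6.29% of all genes did), but not without non-stroked WT replicate 3, at -0.89. Per class, 3 of 4 AMPA, 1 of 5 kainate, 5 of 7 NMDA, 2 of 2 GABAB and 3 of 4 tested glycine receptor subunits fell. The members are not independent of one another, since they share the same samples.

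**Figure D2:**
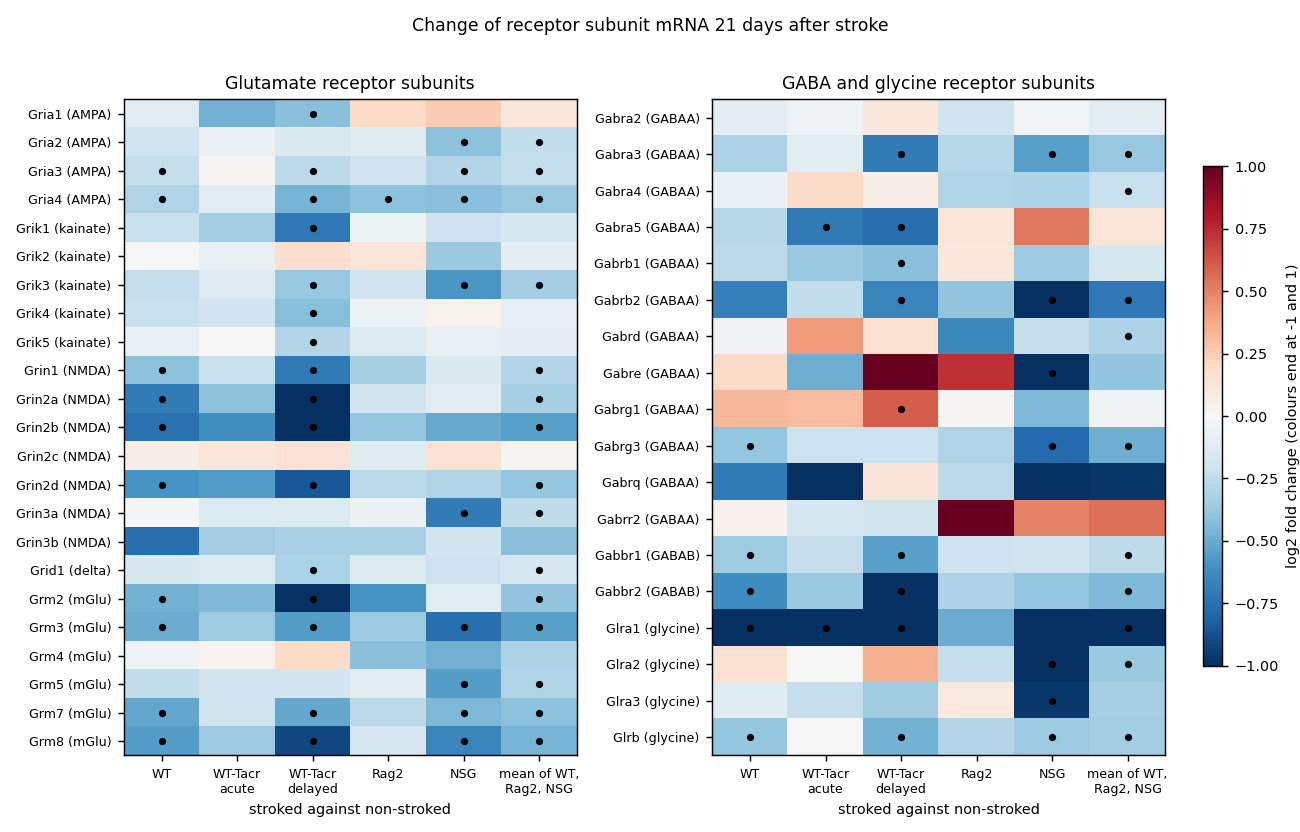
Log2 fold change of 41 tested members (rows, with its class) for stroked against non-stroked mice (columns); blue is lower and red higher after stroke, colours end at -1 and 1, and a black point marks an adjusted p below 0.05. The WT-Tacr columns and the WT column share the non-stroked WT mice. Most cells are blue, with 25 points in the column of the mean.

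AMPA receptors carry the fast excitatory current, and Gria4 and Gria3 were the members of this class with the smallest p-values. Gria4 (ENSMUSG00000025892, chr9:4417896-4796234, strand -, GRCm38) was the only member called in each of WT, Rag2-/- and NSG mice. In WT mice, Gria4 was 129, 133, 117 and 117 CPM without stroke and 103, 107, 95.8 and 95.9 CPM after stroke. The Rag2-/- mice had Gria4 at 128, 129 and 122 without and 80.0, 93.9 and 112 CPM with stroke. The NSG mice had Gria4 at 116, 117, 112 and 121 without and 90.2, 73.8 and 97.9 CPM with stroke. The groups did not overlap in any of the 3 strains, and WT mice had a log2 fold change of -0.30 ± 0.10 (SE; adjusted p = 0.0211), Rag2-/- mice -0.41 ± 0.11 (SE; adjusted p = 0.0204), NSG mice -0.42 ± 0.10 (SE; adjusted p = 0.00644) and their mean -0.38 ± 0.06 (SE; adjusted p = 1.99e-05). The call in WT mice was lost without non-stroked WT replicate 3, at -0.27 ± 0.10 (SE; adjusted p = 0.063). Gria3, a subunit encoded on chromosome X, was 323, 295, 287 and 289 CPM in non-stroked and 246, 273, 252 and 238 CPM in stroked WT mice. Levels of Gria3 were 294, 302 and 294 without and 223, 269 and 289 CPM with stroke in Rag2-/- mice, and 269, 286, 259 and 249 without and 186, 234 and 231 CPM with stroke in NSG mice. Each stroked group lay below its own control, with a log2 fold change of -0.24 ± 0.05 (SE; adjusted p = 8.17e-04) in the mean of strains. Gria2, the subunit whose edited form keeps calcium out of the channel, fell by 0.24 on the log2 scale in the mean of strains (adjusted p = 0.0229), but single samples ranged from 494 to 733 CPM in stroked WT and from 331 to 623 CPM in stroked NSG mice. Without stroked NSG replicate 1 the mean effect on Gria2 was -0.18 ± 0.07 (SE; adjusted p = 0.0315). Gria1 had no call in any of the 3 strains: its level was 611, 515, 597 and 557 CPM in non-stroked and 565, 625, 467 and 463 CPM in stroked WT mice. Levels of Gria1 were 506, 495 and 512 without and 713, 620.5 and 401 CPM with stroke in Rag2-/- mice, and 558, 444, 636 and 452 without and 557, 798 and 511 CPM with stroke in NSG mice. Its log2 fold change in the mean of strains was 0.11 ± 0.10 (SE; adjusted p = 0.386). The highest Gria1 values, in stroked NSG replicate 2 and stroked Rag2-/- replicate 1, were in the libraries with the highest sum of 5 hippocampal genes (78.1, 179 and 59.2 CPM in stroked NSG and 175, 102 and 28.2 CPM in stroked Rag2-/- mice, against 46.1 to 98.3 CPM in non-stroked WT mice), and the part of these transcripts in the result was not tested.

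Kainate receptors had the median nearest 0 of the 8 classes (-0.09 on the log2 scale). Only Grik3 fell in the mean of strains, with a log2 fold change of -0.34 ± 0.09 (SE; adjusted p = 0.00473), while Grik1 at -0.16 ± 0.09 (SE; adjusted p = 0.184), Grik2 at -0.09 ± 0.08 (SE; adjusted p = 0.412), Grik4 at -0.08 ± 0.09 (SE; adjusted p = 0.504) and Grik5 at -0.09 ± 0.07 (SE; adjusted p = 0.266) were not called. Grik5, a high-affinity subunit that needs a partner to form a channel, was 246, 245, 242 and 242 CPM in non-stroked and 291, 239.8, 205 and 197 CPM in stroked WT mice. Levels of Grik5 were 265, 269.9 and 280.1 without and 230.4, 282 and 228 CPM with stroke in Rag2-/- mice, and 261, 292, 296 and 297 without and 272, 260.0 and 283 CPM with stroke in NSG mice. Non-stroked and stroked values overlapped in every strain.

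NMDA receptors, which pass calcium when glutamate binds and the membrane is depolarised, pair Grin1 with Grin2 or Grin3 subunits. Grin2b, the GluN2B subunit that dominates early in development and remains abundant in the adult cortex, had the smallest p of the class. Grin2b was 1226, 1112, 1203 and 1131 CPM in non-stroked and 849, 874, 592 and 475 CPM in stroked WT mice, 1186, 1218 and 1044 without and 828, 1024 and 783 CPM with stroke in Rag2-/- mice, and 800.5, 856, 817 and 842 without and 364, 771 and 623 CPM with stroke in NSG mice. Every stroked sample lay below every non-stroked sample of its own strain, and the log2 fold change was -0.54 ± 0.12 (SE; adjusted p = 6.97e-04) in the mean of strains. Stroked NSG replicate 1 held the lowest value, and without it the log2 fold change in the mean of strains was -0.47 ± 0.11 (SE; adjusted p = 0.00132). Grin1 was 841, 813, 787 and 749 CPM in non-stroked and 729, 686, 471 and 517 CPM in stroked WT mice, where the TF pair was the lower. Levels of Grin1 were 788, 807 and 859 without and 603, 742 and 602 CPM with stroke in Rag2-/- mice, and 747, 786, 696 and 797 without and 628, 719.5 and 702 CPM with stroke in NSG mice. The values of NSG mice overlapped, and in the mean of strains the log2 fold change of Grin1 was -0.30 ± 0.08 (SE; adjusted p = 0.00362). Grin2a at -0.33 ± 0.12 (SE; adjusted p = 0.0292), Grin2d at -0.39 ± 0.10 (SE; adjusted p = 0.00434) and Grin3a at -0.26 ± 0.08 (SE; adjusted p = 0.0142) fell as well. The fall of Grin3a was largest in NSG mice, but the direct test of the response in NSG against WT mice did not call it. With the summed striatal genes as a covariate, added after seeing the data, the log2 fold change of Grin3a was -0.67 ± 0.14 (SE; adjusted p = 0.00211) in NSG mice. In the same fit it was -0.05 ± 0.13 (SE; adjusted p = 0.83) in WT and -0.05 ± 0.15 (SE; adjusted p = 0.895) in Rag2-/- mice. The call of Grin2a was lost without stroked NSG replicate 1, at -0.27 ± 0.12 (SE; adjusted p = 0.0682). Grin2c, which in the cortex is known from astrocytes, had a log2 fold change of 0.03 ± 0.05 (SE; adjusted p = 0.674) and Grin3b one of -0.42 ± 0.25 (SE; adjusted p = 0.19), with 3 to 14 counts per sample and exons that overlap Tmem259 on the other strand. The delta receptor subunit Grid1, which acts at synapses through extracellular binding partners, had a log2 fold change of -0.17 ± 0.06 (SE; adjusted p = 0.0323). Grid1 was 80.3, 78.8, 76.9 and 72.9 CPM in non-stroked and 78.3, 75.96, 63.98 and 59.1 CPM in stroked WT mice, 79.98, 74.98 and 76.01 without and 69.6, 74.8 and 66.1 CPM with stroke in Rag2-/- mice, and 71.3, 78.4, 87.1 and 83.4 without and 72.9, 59.9 and 74.9 CPM with stroke in NSG mice. The Grid1 values of WT and NSG mice overlapped, and its call was lost without non-stroked NSG replicate 3 (log2 fold change -0.15 ± 0.06 (SE; adjusted p = 0.0566)).

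Grm3 and Grm7, both metabotropic, had the smallest p-values of all members. Grm3 (ENSMUSG00000003974, chr5:9485541-9725170, strand -, GRCm38), a Gi-coupled receptor of neurons and astrocytes, was 88.7, 79.2, 79.3 and 74.2 CPM in non-stroked and 50.1, 67.7, 59.2 and 50.3 CPM in stroked WT mice. Levels of Grm3 were 81.4, 83.98 and 63.6 without and 61.6, 56.1 and 60.2 CPM with stroke in Rag2-/- mice, and 72.1, 79.1, 63.2 and 79.8 without and 38.8, 39.8 and 52.3 CPM with stroke in NSG mice. Stroked values lay below all control values of the strain in WT, Rag2-/- and NSG mice, and WT mice had a log2 fold change of -0.50 ± 0.13 (SE; adjusted p = 0.00633), Rag2-/- mice -0.36 ± 0.15 (SE; adjusted p = 0.14), NSG mice -0.75 ± 0.14 (SE; adjusted p = 7.52e-04) and their mean -0.54 ± 0.08 (SE; adjusted p = 9.18e-06). Grm7, a presynaptic receptor that limits transmitter release, was 74.5, 65.7, 65.2 and 65.6 CPM in non-stroked and 44.5, 49.01, 52.5 and 43.3 CPM in stroked WT mice. Levels of Grm7 were 67.7, 68.9 and 54.8 without and 49.5, 55.6 and 53.3 CPM with stroke in Rag2-/- mice, and 60.1, 61.7, 68.4 and 58.7 without and 36.9, 50.6 and 49.3 CPM with stroke in NSG mice. Only the Rag2-/- groups overlapped, and the log2 fold change in the mean of strains was -0.41 ± 0.06 (SE; adjusted p = 1.01e-05). Grm8, a second presynaptic receptor of the same group, was 23.5, 26.1, 20.1 and 19.8 CPM in non-stroked and 17.5, 17.3, 11.3 and 14.7 CPM in stroked WT mice, 19.3, 20.9 and 19.9 without and 13.8, 18.96 and 20.7 CPM with stroke in Rag2-/- mice, and 18.3, 20.9, 17.4 and 16.5 without and 11.8, 8.77 and 14.1 CPM with stroke in NSG mice. Again the Rag2-/- groups alone overlapped, and the log2 fold change in the mean of strains was -0.46 ± 0.10 (SE; adjusted p = 6.50e-04). Grm2 and Grm5 also fell, by 0.39 and 0.30 on the log2 scale (adjusted p = 0.00504 and 0.00569), and Grm4 had a log2 fold change of -0.31 ± 0.13 (SE; adjusted p = 0.0554).

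**Figure D3:**
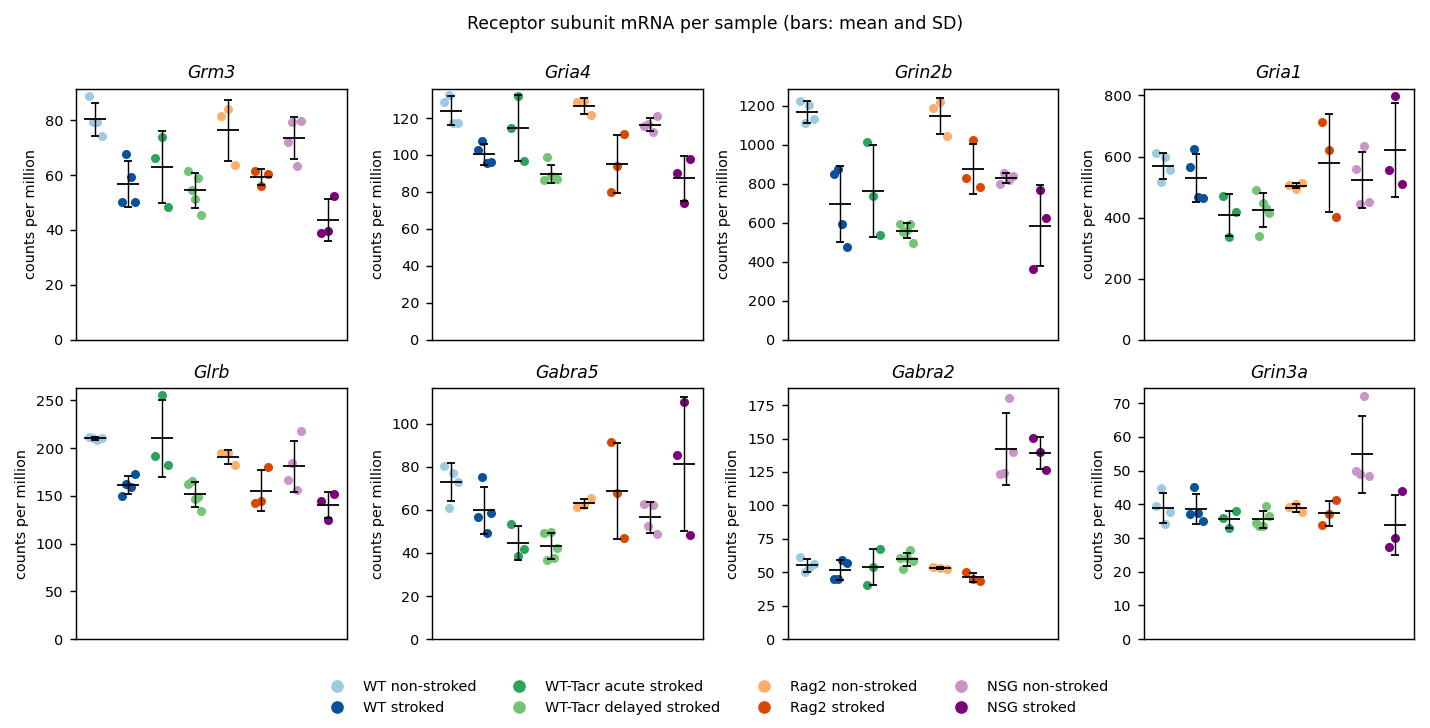
CPM of 8 members in every sample by group (points), with the mean and SD as bars; each vertical axis starts at 0. Grm3, Gria4, Grin2b and Glrb have lower means in stroked than in non-stroked WT, Rag2-/- and NSG mice, Gria1 and Gabra5 overlap, and Gabra2 is above 120 CPM in all NSG samples and below 70 CPM in all other samples.

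GABAA receptors of the common synaptic type combine alpha, beta and gamma subunits. Gabrg3, a scarcer gamma subunit, was 49.5, 48.3, 41.6 and 44.1 CPM in non-stroked and 38.5, 36.5, 32.5 and 32.7 CPM in stroked WT mice, 49.6, 48.99 and 42.4 without and 35.7, 41.4 and 37.4 CPM with stroke in Rag2-/- mice, and 47.2, 47.3, 49.6 and 46.3 without and 21.9, 23.2 and 38.1 CPM with stroke in NSG mice. No group overlapped with its control, and the log2 fold change was -0.49 ± 0.08 (SE; adjusted p = 2.54e-05) in the mean of strains, with the largest of the 3 strain values in NSG mice (-0.78). Gabra3 was 155, 164, 151 and 143 CPM in non-stroked and 132, 147, 105 and 107 CPM in stroked WT mice, 143, 151 and 149 without and 86.3, 119 and 158 CPM with stroke in Rag2-/- mice, and 128, 147, 149 and 139.8 without and 97.4, 73.2 and 119.9 CPM with stroke in NSG mice. Groups overlapped in WT and Rag2-/- mice, and the mean log2 fold change was -0.38 ± 0.09 (SE; adjusted p = 0.00196). Of other GABAA subunits, Gabrb2, Gabra4 and Gabrd fell as well, by 0.71, 0.22 and 0.31 on the log2 scale. Gabrb2 was 156, 139.8, 137 and 145 CPM in non-stroked and 21.1, 88.1 and 98.1 CPM in stroked NSG mice, and without stroked NSG replicate 1 its mean log2 fold change over the strains was -0.58 ± 0.10 (SE; adjusted p = 4.25e-05). The call of Gabrd was lost without non-stroked WT replicate 3, at -0.31 ± 0.12 (SE; adjusted p = 0.0522). Gabra5, Gabra2, Gabrb1, Gabrg1, Gabrq, Gabre and Gabrr2 were not called. Gabrq was at -0.98 ± 0.43 (SE; adjusted p = 0.0703) with all samples and -0.66 ± 0.39 (SE; adjusted p = 0.188) without non-stroked NSG replicate 3. Gabra5, an extrasynaptic subunit most abundant in the hippocampus, was 91.6, 67.7 and 47.1 CPM in stroked Rag2-/- and 85.5, 110.3 and 48.2 CPM in stroked NSG mice, with the highest value of each group in the library with the most hippocampal transcripts, and its mean log2 fold change was 0.12 ± 0.12 (SE; adjusted p = 0.447). Gabrr2, at 6 to 60 counts per sample, was not called with all samples (0.55 ± 0.25 (SE; adjusted p = 0.0772)) and was higher without non-stroked WT replicate 3, at 0.74 ± 0.22 (SE; adjusted p = 0.01).

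GABAB receptors are dimers of both subunits. Gabbr1 was 1012, 956, 967 and 973 CPM in non-stroked and 865, 857, 681 and 652 CPM in stroked WT mice. Levels of Gabbr1 were 975, 966 and 940.5 without and 799, 875 and 823 CPM with stroke in Rag2-/- mice, and 1001, 999, 1008 and 1082 without and 774, 915 and 982 CPM with stroke in NSG mice. Stroked values were below the control values in every strain, and the mean log2 fold change was -0.25 ± 0.06 (SE; adjusted p = 0.00165). Gabbr2 was 623, 559, 586 and 521 CPM in non-stroked and 466, 488, 281 and 249.8 CPM in stroked WT mice, 552, 604 and 551 without and 377, 509.7 and 491 CPM with stroke in Rag2-/- mice, and 559, 548, 434 and 519.5 without and 295, 446 and 443 CPM with stroke in NSG mice. The mean log2 fold change of Gabbr2 was -0.44 ± 0.13 (SE; adjusted p = 0.00734), and the NSG groups overlapped. Among glycine receptor subunits, Glrb, which anchors the receptor to gephyrin, was 211, 210.1, 208 and 211 CPM in non-stroked and 149, 162, 159 and 172 CPM in stroked WT mice. Levels of Glrb were 195, 195 and 182 without and 142, 144 and 179.7 CPM with stroke in Rag2-/- mice, and 166, 184, 156 and 217 without and 144, 125 and 152 CPM with stroke in NSG mice. No stroked value reached the control values of its strain, and the mean log2 fold change was -0.35 ± 0.07 (SE; adjusted p = 1.73e-04). The alpha subunit Glra1, the adult form of brainstem and spinal cord, was 0.740, 6.39, 0.504 and 0.632 CPM in non-stroked and 0.278, 0.389, 0.391 and 0.153 CPM in stroked WT mice. Midbrain and brainstem genes summed to 51.3 CPM in non-stroked WT replicate 3 and to 12.2, 4.67, 4.87 and 31.6 CPM in stroked WT mice. Stroked WT replicate 4, with the highest sum of its group, had the lowest Glra1 of that group. The part of these transcripts in the Glra1 result was not tested. For stroked against non-stroked WT mice, Glra1 was at -2.77 ± 0.70 (SE; adjusted p = 0.0057) on the log2 scale with all samples. It was at -1.05 ± 0.54 (SE; adjusted p = 0.161) without non-stroked WT replicate 3. In the mean of strains these values were -1.47 ± 0.44 (SE; adjusted p = 0.00885) and -0.89 ± 0.31 (SE; adjusted p = 0.0259). Glra2 had a mean log2 fold change of -0.37 ± 0.13 (SE; adjusted p = 0.0301), a call that was lost without that library or without non-stroked NSG replicate 3, and Glra3 one of -0.33 ± 0.16 (SE; adjusted p = 0.113), or -0.22 ± 0.15 (SE; adjusted p = 0.253) without the latter. In NSG mice alone Glra3 was called at -0.97 ± 0.29 (SE; adjusted p = 0.0193) and not without that library, at -0.63 ± 0.27 (SE; adjusted p = 0.104).

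Seen strain by strain, 18 members fell in WT mice, where 11.6% of all genes were lower. In NSG mice 18 members fell (8.89% of all genes), and in Rag2-/- mice 1 (1.53% of all genes). No member rose in these 3 comparisons, against 15.2%, 13% and 6.71% of all genes. WT and NSG mice share no sample, and 7 members fell in both: Gabrg3, Glrb, Gria3, Gria4, Grm3, Grm7 and Grm8, or 38.9% of either list, which is near the 39.1% of tested members called in each strain. WT mice had 41 of 46 members with a log2 fold change below 0, Rag2-/- mice 38 and NSG mice 41, compared with 50%, 50.6% and 46.8% of all genes, and 35 were below 0 in all 3 strains. For the median member, WT mice had a log2 fold change of -0.27, Rag2-/- mice -0.20 and NSG mice -0.37. In WT mice the count was lower within Imm2, where 2 stroked WT mice were left and 4 members fell, Grm7 and Glrb among them. Without stroked WT replicate 3 or 4 (both TF) 9 fell in each case. Without non-stroked WT replicate 1 the count was 10, and without replicate 3 it was 12, with Gabrg3, Glra1, Gria3, Gria4, Grin2d and Grm2 lost. In NSG mice 8 members fell without stroked NSG replicate 1. The order of Rag2-/- and NSG mice turned when only the groups compared were fitted, with 17 lower in WT, 7 lower and 1 higher in Rag2-/- and 1 lower in NSG mice. Rag2-/- mice had 4 lower within Imm2 and 4 by DESeq2. Scaled to the pan-neuronal sum, 2 were lower and 4 higher in WT, 1 higher in Rag2-/- and 7 lower in NSG mice. In Rag2-/- mice the call of Gria4 was lost without non-stroked replicate 1 or 2 or stroked replicate 1 or 2.

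The difference between strains in their response to stroke was tested directly, as the stroke effect in NSG or Rag2-/- mice minus that in WT mice. No member passed in either test with edgeR (smallest adjusted p 0.139 for NSG and 0.950 for Rag2-/-), while 8 and 2 of 46 members had an unadjusted p below 0.05, compared with 12.7% and 4.19% of all genes. DESeq2 called 1 and 0 members. Among all genes, 0.0294% passed for NSG and 0% for Rag2-/- mice. Grin3a had a difference of -0.69 ± 0.19 (SE; adjusted p = 0.161) between NSG and WT mice. Without stroked NSG replicate 3, 4 members passed for NSG mice.

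Without stroke, 2 members differed between strains in the fit of all groups, both higher in NSG mice. Over all genes, 4.84% were higher in NSG than in WT mice and 3.07% higher in NSG than in Rag2-/- mice. These shares are near the 4.35% of tested members called higher in each comparison. Within Imm2, which held all non-stroked samples, Gabrg1 was also higher in NSG mice. It was at 0.50 ± 0.15 (SE; adjusted p = 0.0394) against WT and 0.63 ± 0.16 (SE; adjusted p = 0.0254) against Rag2-/- mice. Not every member called there against WT was higher, and Grin3a was not called against Rag2-/- mice, at 0.49 ± 0.16 (SE; adjusted p = 0.0847). Gabra2 (ENSMUSG00000000560, chr5:70957597-71095849, strand -, GRCm38), the alpha 2 subunit of GABAA receptors at the axon initial segment and other synapses, was 123, 124, 181 and 139.8 CPM in non-stroked NSG mice. It was 61.6, 49.8, 53.3 and 56.5 CPM in non-stroked WT and 53.7, 53.2 and 52.4 CPM in non-stroked Rag2-/- mice. The NSG values lay clear of all others, with a log2 fold change of 1.36 ± 0.13 (SE; adjusted p = 3.13e-08) against WT and 1.42 ± 0.14 (SE; adjusted p = 1.01e-07) against Rag2-/- mice. After stroke Gabra2 stayed at 151, 140.3 and 126 CPM in NSG mice, 45.3, 45.3, 59.2 and 57.2 CPM in WT and 50.02, 45.2 and 43.3 CPM in Rag2-/- mice, and its stroke effect was -0.03 ± 0.14 (SE; adjusted p = 0.895) in NSG mice. As background, C57BL/6J mice are known for a lower level of Gabra2 than most laboratory strains. Grin3a, an NMDA subunit that lowers calcium entry, was 49.9, 49.1, 72.1 and 48.3 CPM in non-stroked NSG, 39.5, 44.8, 34.04 and 37.7 CPM in WT and 39.1, 40.1 and 37.7 CPM in Rag2-/- mice. Its groups did not overlap, and the log2 fold change was 0.49 ± 0.13 (SE; adjusted p = 0.015) against WT and 0.49 ± 0.14 (SE; adjusted p = 0.0351) against Rag2-/- mice. Both calls of Grin3a were lost without NSG replicate 3, at 0.33 ± 0.12 (SE; adjusted p = 0.109) and 0.33 ± 0.13 (SE; adjusted p = 0.193). Striatal genes summed to 346, 909, 1847 and 2406 CPM in the non-stroked NSG mice. With the striatal sum as a covariate, 1 member was called in either comparison, Gabra2, and Grin3a was at 0.44 ± 0.14 (SE; adjusted p = 0.0525) against WT and 0.44 ± 0.15 (SE; adjusted p = 0.0848) against Rag2-/- mice. After stroke Grin3a was 27.3, 30.04 and 44.0 CPM in NSG mice, a log2 fold change of -0.70 ± 0.14 (SE; adjusted p = 0.00146). The controls of this effect held replicate 3 at 72.1 CPM, and every stroked value lay below their lowest value of 48.3 CPM. The effect without that library is not given here. Between Rag2-/- and WT mice 0 of 46 members differed with edgeR (0.00587% of all genes), with 1 at an unadjusted p below 0.05 (2.05% of all genes) and 0 by DESeq2.

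Groups given tacrolimus differed in how many members were lower than in non-stroked mice, and in the share of all genes that were lower. Against the same non-stroked WT mice, 2 members fell in WT-Tacr acute (4.35% of tested members and 2.36% of all genes). In WT-Tacr delayed 28 fell (60.9% and 27.6%), and in WT mice 18 (39.1% and 11.6%). Without WT-Tacr acute replicate 1, 9 fell and 1 rose in WT-Tacr acute, and without replicate 2 or 3 the count was 0. It was 1 without any single non-stroked WT sample. Scaled to the pan-neuronal sum, 1 was lower in WT-Tacr acute, and 4 were lower and 19 higher in WT-Tacr delayed mice, where the median of all genes moved to 0.688. The 3 comparisons share their control samples, so their values are given side by side and are not counted as repeats of each other. For Grin2b the log2 fold change without tacrolimus was -0.74, that of WT-Tacr acute -0.61 and that of WT-Tacr delayed -1.06. These values were for Gabbr2 -0.62, -0.37 and -1.13, and for Grm3 -0.50, -0.35 and -0.56. The 2 members that fell in WT-Tacr acute mice were Glra1 and Gabra5. Glra1 was at -2.62 ± 0.78 (SE; adjusted p = 0.0386) with all samples and -0.90 ± 0.58 (SE; adjusted p = 0.338) without non-stroked WT replicate 3. In WT-Tacr delayed mice it was at -2.28 ± 0.64 (SE; adjusted p = 0.0044) and, without that library, -0.56 ± 0.51 (SE; adjusted p = 0.365). Gabra5 was 53.5, 38.4 and 41.6 CPM in WT-Tacr acute, 49.1, 36.8, 49.9, 37.8 and 42.4 CPM in WT-Tacr delayed and 80.6, 60.7, 77.1 and 73.03 CPM in non-stroked WT mice, with a log2 fold change of -0.71 ± 0.21 (SE; adjusted p = 0.0414) in WT-Tacr acute. In the same libraries the hippocampal genes summed to 20.8, 16.9 and 17.2 CPM. With scaling to the library total, the single member that rose was Gabrg1, a gamma subunit also known from astrocytes, in WT-Tacr delayed mice: 22.8, 17.6, 18.9, 22.6 and 21.1 CPM against 13.3, 14.8, 13.3 and 12.9 CPM in non-stroked WT mice, a log2 fold change of 0.60 ± 0.19 (SE; adjusted p = 0.00988) (27.6% of all genes rose). With the cohort as a covariate, 4 members fell in WT-Tacr delayed and 0 in WT-Tacr acute mice. All WT-Tacr delayed mice were TF and all non-stroked mice Imm2.

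Compared directly with stroked WT mice, no member differed in WT-Tacr acute or WT-Tacr delayed mice with edgeR (smallest adjusted p 0.311 and 0.150). At an unadjusted p below 0.05 there were 8 and 11 members (12.7% and 20.3% of all genes), and DESeq2 called 0 and 0. Over all genes 0% passed in both. Without WT-Tacr acute replicate 3, 4 members were higher in WT-Tacr acute mice. Without stroked WT replicate 3 or 4, 2 members were lower in WT-Tacr delayed mice.

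WT-Tacr delayed differed from WT-Tacr acute mice in 14 members, all lower in the delayed group (9.96% of all genes were lower). The direction rested on scaling to the library total: scaled to the pan-neuronal sum, 12 members were called, all higher in the delayed group, and the median of all genes moved to 0.452. Glrb, Gabra3, Grin1, Gabbr2, Gria4, Grm8, Gria3 and Gabbr1 were among the 10 with the smallest p. Glrb was 192, 256 and 182 CPM in acute and 162, 166, 146, 149 and 134 CPM in delayed mice, a log2 fold change of -0.47 ± 0.11 (SE; adjusted p = 0.0103). The groups did not overlap. Gabra3 was 162, 148 and 116 CPM in acute and 99.7, 108, 87.4, 86.8 and 88.9 CPM in delayed mice (-0.59 on the log2 scale). Grin1 was 840.2, 674 and 532 CPM in acute and 532, 519, 477, 478 and 434 CPM in delayed mice (-0.48). Neither member overlapped between the groups, although the Grin1 value of replicate 3 was within 1 CPM of the highest delayed value. Gabbr2 was 598, 443 and 284 CPM in acute and 295, 316, 249, 239 and 207 CPM in delayed mice (-0.76). Gria4 was 115, 132 and 96.8 CPM in acute and 86.6, 98.7, 88.5, 87.95 and 86.9 CPM in delayed mice (-0.35). Grm8 was 20.2, 17.98 and 13.8 CPM in acute and 12.7, 14.7, 10.6, 10.5 and 11.01 CPM in delayed mice (-0.54). For these 3 members replicate 3 lay inside the range of the delayed mice. Gria3 was 297, 331 and 275 CPM in acute and 259.8, 269, 247, 237 and 231 CPM in delayed mice (-0.28). Gabbr1 was 970.4, 805 and 724 CPM in acute and 742, 653, 665, 694 and 602 CPM in delayed mice (-0.31). The groups overlapped for Gabbr1 and not for Gria3. The adjusted p of these 7 members ran from 0.013 to 0.03. Under the pan-neuronal scaling Glrb, Grin1, Gria4, Gria3 and Gabbr1 turned to values above 0, and Gabra3, Gabbr2 and Grm8 stayed below 0 without a call. WT-Tacr acute replicates 1 and 2 had 305 and 290.1 CPM of microglia and macrophage genes and replicate 3 had 605 CPM. Non-stroked WT mice had 223 to 263 CPM and WT-Tacr delayed mice 629 to 829 CPM. The part of this difference in the result was not tested. Their pan-neuronal sums were 13339, 12052 and 9479 CPM, against 7381 to 8911 CPM in WT-Tacr delayed mice. No member passed without WT-Tacr acute replicate 1, without replicate 2 or within the TF samples, and 19 passed without replicate 3.

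Receptor transcripts were then set against other neuronal transcripts. The summed level of the 52 members was 68.9% ± 0.821 (SD, n = 4) of the pan-neuronal sum in non-stroked WT and 69.1% ± 5.78 (n = 4) in stroked WT mice. It was 66.9% ± 4.25 and 71.0% ± 6.91 in non-stroked and stroked Rag2-/- mice (n = 3 each), 66.9% ± 4.66 (n = 4) and 62.2% ± 14.1 (n = 3) in NSG mice, 65.8% ± 2.42 (n = 3) in WT-Tacr acute and 74.9% ± 3.43 (n = 5) in WT-Tacr delayed mice. The lowest share, 47.1%, was that of stroked NSG replicate 1. Among stroked WT mice the Imm2 pair had 62.3% and 66.8% and the TF pair 75.4% and 71.9%. Non-stroked WT mice, all Imm2, had 68.1% to 69.6%. Classes differed within these totals. In WT mice the NMDA share was 18.4% ± 0.139 without and 15.8% ± 0.932 with stroke, and the AMPA share 13.1% ± 0.473 and 15.4% ± 2.87. Stroked WT mice had AMPA shares of 11.9% and 14.1% in the Imm2 pair and 18.0% and 17.4% in the TF pair. Without and with stroke the AMPA share was 12.2% ± 0.758 and 14.7% ± 2.41 in Rag2-/- mice. For NSG mice it was 12.5% ± 1.85 and 12.7% ± 3.82. The NMDA share was 18.3% ± 1.15 and 18.0% ± 2.60 in Rag2-/- mice, and 15.8% ± 0.562 and 14.7% ± 4.56 in NSG mice. When libraries were scaled to the pan-neuronal sum in place of the total, the median log2 fold change of all genes in the mean of strains moved to 0.291, and 10 members were called. Among those called, Grm3 at -0.25 (adjusted p = 0.0115), Grm8 at -0.19 (adjusted p = 0.0378), Grin2b at -0.26 (adjusted p = 0.0364) and Glra1 at -1.22 (adjusted p = 0.0192) were lower relative to the pan-neuronal genes. Gria1 at 0.40 (adjusted p = 0.00738), Gabra5 at 0.42 (adjusted p = 0.0137), Grik5 at 0.18 (adjusted p = 0.00735), Grin2c at 0.33 (adjusted p = 0.00622) and Gabrr2 at 0.82 (adjusted p = 0.00582) were higher, and of these Grik5 lay below the shift of all genes. Gria3 changed sign, to 0.05. The changes of Grm7, Gria4, Gabrg3 and Glrb no longer passed.

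**Figure D4:**
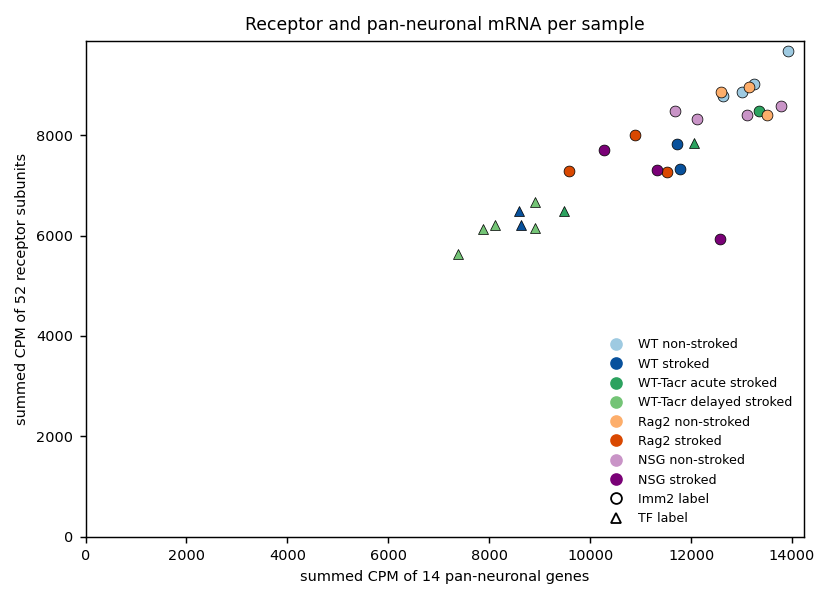
Summed CPM of the 52 members (vertical) against the summed CPM of 14 pan-neuronal genes (horizontal) in each of 29 samples, coloured by group; circles are Imm2 and triangles TF samples. Both axes start at 0. The receptor sum was 8323 to 9686 CPM in non-stroked and 5645 to 8496 CPM in stroked samples, with stroked NSG replicate 1 below the other samples of like neuronal sum.

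Ratios of 2 subunits within a sample do not depend on the library total. The ratios were compared between stroked and non-stroked mice of WT, Rag2-/- and NSG (21 samples, exact two-sided permutation within strains, 49000 arrangements). Values were adjusted by Benjamini-Hochberg over the 5 ratios computed, of which 3 are described. Grin2b to Grin2a was 1.76, 1.76, 1.74 and 1.77 on the log2 scale in non-stroked and 1.90, 1.70, 1.55 and 1.65 in stroked WT mice. In Rag2-/- mice it was 1.85, 1.87 and 1.89 without and 1.56, 1.78 and 1.63 with stroke, and in NSG mice 1.47, 1.51, 1.95 and 1.48 without and 1.03, 1.05 and 1.52 with stroke. The mean difference was -0.22 (exact permutation p = 0.00543, adjusted p = 0.0151), and the groups overlapped in WT and NSG mice but not in Rag2-/- mice. Gria1 to Gria2 had a mean difference of 0.36 (exact permutation p = 0.0214, adjusted p = 0.0357), made up of 0.10 for WT, 0.27 for Rag2-/- and 0.70 for NSG mice, and missed the threshold when any of 12 single samples was left out (highest adjusted p 0.0776). In stroked Rag2-/- mice the highest Gria1 to Gria2 ratio was that of the sample with the most hippocampal transcripts. In stroked NSG and WT mice the highest ratio was that of replicate 1 (0.75 and 0.19). Replicate 2 of either group had the most hippocampal transcripts (179 and 104 CPM). The part of these transcripts in the ratio was not tested. Grin3a to Grin1 differed by 0.05 (exact permutation p = 0.769, adjusted p = 0.944). This mean was made up of strain values of opposite sign, 0.42 for WT, 0.28 for Rag2-/- and -0.56 for NSG mice.

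**Figure D5:**
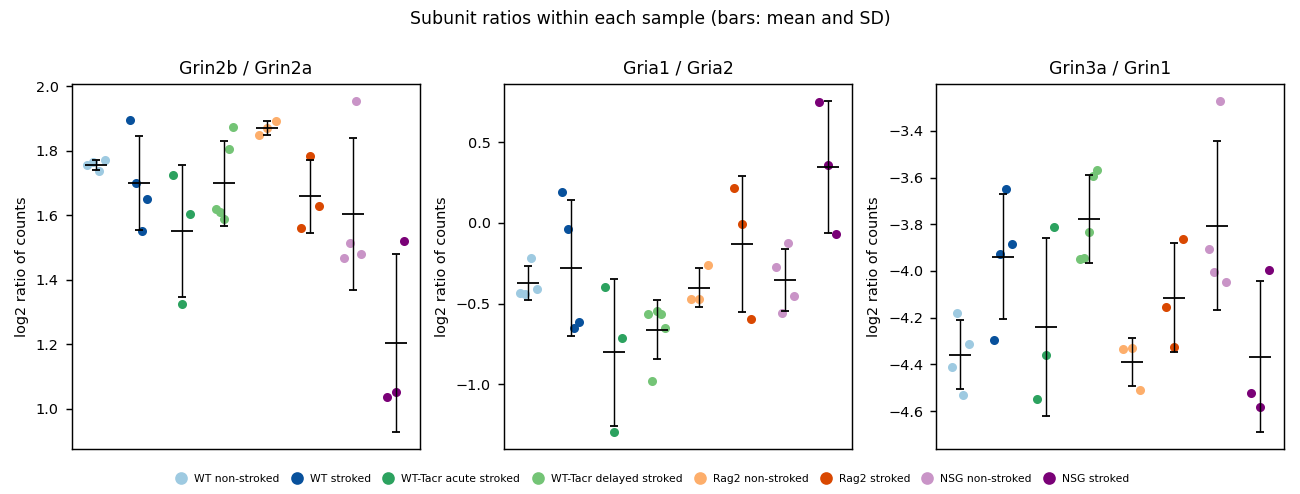
Log2 ratio of the counts of 2 subunits in every sample by group (points), with mean and SD as bars; the vertical axes differ between panels. Grin2b to Grin2a is lower in the stroked WT, Rag2-/- and NSG mice on average, with wide spread in NSG mice.

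Genes for proteins that carry, anchor or cluster the receptors were lower in part. In the mean of strains, 6 of 14 auxiliary subunits of AMPA and kainate receptors were lower and 1 higher, 11 of 18 excitatory scaffold and clustering genes were lower and 1 higher, and 6 of 11 inhibitory ones were lower and 1 higher, with medians of -0.17, -0.26 and -0.23 on the log2 scale. Of all genes, 18.4% were lower and 21.6% higher. Slitrk3, an organiser of inhibitory synapses, had a log2 fold change of -0.44 ± 0.06 (SE; adjusted p = 1.71e-06), Kctd16, an auxiliary subunit of GABAB receptors, one of -0.88 ± 0.16 (SE; adjusted p = 1.08e-04) and Dlg1 (SAP97), an AMPA receptor scaffold, one of -0.27 ± 0.05 (SE; adjusted p = 2.36e-04). The genes that rose were Gabarap, a GABAA receptor trafficking protein also used in autophagy (0.49 ± 0.07 (SE; adjusted p = 4.17e-06)), Homer3, a scaffold of group I mGlu receptors (0.72 ± 0.16 (SE; adjusted p = 7.57e-04)), and Cnih2, an AMPA receptor auxiliary subunit (0.30 ± 0.12 (SE; adjusted p = 0.0438)).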

How the data were processed

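The authors isolated RNA from stroked cortical tissue and the contralesional site, made polyA libraries with a stranded kit and deposited 1 table of read counts per gene for each of 29 samples. The aligner, genome build and use of strand in counting are not given in the sources used here. Receptor members were matched by gene symbol, and the members and gene lists were chosen with earlier results of these data known. Counts were analysed in R 4.3.3 with edgeR 4.0.16 (TMM, filterByExpr by group, quasi-likelihood test, 1 fit of 8 groups), with Benjamini-Hochberg adjustment over 17031 genes and a threshold of 0.05. Adjusted p-values in the text are from this edgeR fit unless another test is named. Depth was 17789044 to 43403413 counts per sample. Levels per kb use exon lengths of GENCODE M21 (GRCm38). Exons of Grin3b overlap Tmem259, and those of Gabra4 overlap Gabrb1, on opposite strands, so reads there are uncertain. Members given sample by sample are the 10 with the smallest p in the mean stroke effect, those called between strains, the 10 with the smallest p between tacrolimus groups and the leading member of each class. Of the partner genes, the 3 with the smallest p in each direction are named. Further sample values (Gabra5, Gabrb2, Gabrg1, Glra1) were added after their values were seen. Alternatives were DESeq2 1.42.0, other filters, scalings and sample sets, and covariates for cohort and striatal genes. Some members and ratios are not reported here, though they are in the counts of members. The fit was also run on simulated counts with the same spread for all genes and no effects of cohort, region or single libraries. That run cannot speak to such effects in these data. Replicates of a group differed by more than counting noise.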

Additional observations from a re-analysis of the deposited data

Results flagged for a closer look

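Of 76 sets of values from groups of 4 or 5 samples, 6 had 1 sample far from the others by Dixon's criterion, and chance gives about 1 in 20. In non-stroked NSG mice, Gabbr1 was highest at 1082 CPM in replicate 4 (nearest value 1008 CPM), Grik5 was lowest at 261 CPM in replicate 1 (nearest 292 CPM), and Grin3a was highest at 72.1 CPM in replicate 3 (nearest 49.9 CPM). Grm7 was highest at 74.5 CPM in replicate 1 of the non-stroked WT mice (nearest 65.7 CPM). In WT-Tacr delayed mice, Gria4 was highest at 98.7 CPM in replicate 2 (nearest 88.5 CPM) and Grm7 lowest at 41.7 CPM in replicate 5 (nearest 47.4 CPM).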

How the results depend on the processing

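Counts of members called are given for stroke in WT, WT-Tacr acute, WT-Tacr delayed, Rag2-/-, NSG mice and the mean of strains, for strains without stroke, and for WT-Tacr delayed against acute. These counts are given without the share of all genes called in each setting. With an absolute log2 fold change above 1 they were 1, 1, 4, 0, 3 and 1 for stroke, 1 for NSG against WT, 1 for NSG against Rag2-/- and 0 for delayed against acute. With cohort as a covariate they were 5 in WT, 0 in acute, 4 in delayed, 5 in Rag2-/-, 5 for NSG against WT and 6 for delayed against acute. Within Imm2 they were 4 in WT, 0 in acute, 4 in Rag2-/- and 4 for NSG against WT, and within TF 0 for delayed against acute. With the pan-neuronal sum as library size they were 6 in WT, 1 in acute, 7 in NSG, 10 in the mean and 1 for NSG against Rag2-/-. In WT-Tacr delayed mice 19 of 23 were then higher, and all 12 for delayed against acute were higher. Under this scaling Gria3 in the mean turned to 0.0453 (log2), and delayed against acute turned to 0.0072 for Glrb, 0.0212 for Grin1, 0.14 for Gria4, 0.20 for Gria3 and 0.18 for Gabbr1. Fits of only the groups compared called 0 in acute, 8 in Rag2-/-, 1 in NSG, 7 for NSG against WT and 0 for delayed against acute. DESeq2 called 4 in acute, 4 in Rag2-/- and 1 for the NSG minus WT response. With striatal genes as a covariate, added after seeing the data, counts were 0 in acute, 3 in Rag2-/-, 1 for NSG against WT, 1 for NSG against Rag2-/- and 8 for delayed against acute. Without WT-Tacr acute replicates 1 and 2, also added later, 10 were called in acute and 0 for delayed against acute. The causes of these shifts were not tested.

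Leaving out 1 sample gave 9 to 18 calls in WT, 0 to 10 in acute, 24 to 29 in delayed, 0 to 2 in Rag2-/-, 8 to 23 in NSG and 27 to 33 in the mean. It gave 1 to 3 for NSG against WT, 0 for Rag2-/- against WT, 1 to 3 for NSG against Rag2-/-, 0 to 4 for the NSG minus WT response, 0 for the Rag2-/- minus WT response, 0 to 4 for acute against WT, 0 to 2 for delayed against WT and 0 to 19 for delayed against acute. Without WT-Tacr delayed replicate 3, 4 or 5, delayed against acute gave 9, 9 and 7. Ratios ranged from -0.28 to -0.18 for Grin2b to Grin2a, 0.29 to 0.43 for Gria1 to Gria2 and -0.0167 to 0.10 for Grin3a to Grin1. Grin3a to Grin1 was -0.0124 within Imm2.

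Replicate numbers were shared by non-stroked groups. Samples of the same number correlated from -0.28 to 0.13 between WT and NSG, 0.107 to 0.127 between WT and Rag2-/- (2 pairs) and -0.16 to 0.08 between Rag2-/- and NSG, so the numbers were not taken to pair samples. Both pairs of WT and Rag2-/- lay above all pairs of different number, and with so few pairs this was not settled. With the replicate block 4 members were called for NSG against Rag2-/- (4 in the same samples without it), 3 for NSG against WT (2 without it) and 0 for Rag2-/- against WT (0 without it).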
